A study of Mus musculus with 33 samples.

Results

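The genes described here encode 7 tubulin isotypes, the alpha isotypes Tuba1a, Tuba1b and Tuba4a and the beta isotypes Tubb2a, Tubb2b, Tubb3 and Tubb5. They were found by symbol, and all 7 had a record among the 37926 of the RNA tables and among the 36194 genes of the iCLIP files. Primary motoneurons of CD-1 mice were cultured in microfluidic devices in which axons extend into a separate compartment, and total RNA was taken from the axonal and the somatodendritic compartment. RNA-seq groups were hnRNP R knockdown (3 libraries per compartment), 7SK knockdown (4 per compartment) and GFP control (4 per compartment), 22 libraries in all. A further 11 libraries came from iCLIP, which counts cDNAs that stop where a protein was crosslinked to RNA. They used antibody 1 against hnRNP R in unfractionated wild-type motoneurons (2 libraries) and in unfractionated NSC34 cells (2 libraries). Nuclear and cytoplasmic fractions gave 1 library each for motoneurons with antibody 1 and for NSC34 cells with antibodies 1 and 2, and 1 NSC34 library was made with IgG. NSC34 is a mouse hybrid line of neuroblastoma and spinal motoneuron-enriched cells. The sources used here do not say how the knockdowns were made, how old the animals were or whether replicates were separate cultures, and the treatment field reads none for every sample. The p-values of iCLIP therefore measure only the spread between these libraries, which may be technical.

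Microtubules are polymers of alpha and beta tubulin heterodimers, and long axons depend on them for shape and transport. Each family has several genes whose proteins differ mostly in their acidic C-terminal tails, where enzymes add and remove glutamates and other groups. Neurons in development are known for high Tuba1a, Tubb2a, Tubb2b and Tubb3, and Tubb3 is a standard marker of neurons. hnRNP R is an RNA-binding protein that binds 7SK, a noncoding RNA known for sequestering the elongation kinase P-TEFb.

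The authors' RNA values were 1 FPKM value (fragments per kilobase of transcript, scaled to the mapped fragments of the library) per group in each of 4 tables, so there is no spread between RNA replicates and the read depth is unknown. Each table had its own scaling. The control columns of the 2 tables of a compartment hold the same libraries rescaled, by a median factor of 1.03 in axons and 0.920 in cell bodies (7SK table over hnRNP R table), and they are not separate replicates. The record Gm26924 alone made up 36.8% to 47.5% of all FPKM, depending on the group. Hnrnpr was at 3.98 FPKM in hnRNP R knockdown axons against 9.93 in control axons, and at 10.8 against 27.2 FPKM in cell bodies, in the authors' deposited tables. Rn7sk was at 6370.2 FPKM in 7SK knockdown cell bodies against 9104 in control cell bodies, but at 3508 FPKM in the axon group labelled 7SK knockdown against 2708 in control axons, opposite to that label, in the authors' deposited tables. Of 8 motoneuron markers with a record, Chat, Isl2 and Mnx1 were listed at 0 in every group, and the summed level of the list was between 3.20 and 12.9 FPKM. Slit3 alone held 10.3 of 12.6 FPKM in control axons and 2.94 of 6.61 in control cell bodies, in the hnRNP R tables. The 8 markers of other neuron types summed there to 36.0 FPKM in control axons and 151 in control cell bodies, with Slc17a7, Th and Tph2 at 0 in both. The 8 pan-neuronal markers were at 1 FPKM or more in every group.

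Tubulin RNAs made up a large beta and a smaller alpha pool in both compartments. In control axons the order of levels was Tubb5 (508 FPKM), Tuba1a (259.6 FPKM), Tubb2a (195 FPKM), Tubb2b (184 FPKM), Tubb3 (183 FPKM), Tuba1b (84.1 FPKM) and Tuba4a (2.76 FPKM), in the hnRNP R tables. In control cell bodies it was Tubb5 (888 FPKM), Tubb3 (675 FPKM), Tuba1a (514 FPKM), Tubb2b (415 FPKM), Tubb2a (354 FPKM), Tuba1b (111 FPKM) and Tuba4a (21.1 FPKM). Tubb3 thus stood next to Tubb2b and Tubb2a in axons and second only to Tubb5 in cell bodies. Without replicate values no neighbours in either order can be said to differ beyond their spread.

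**Figure D1:**
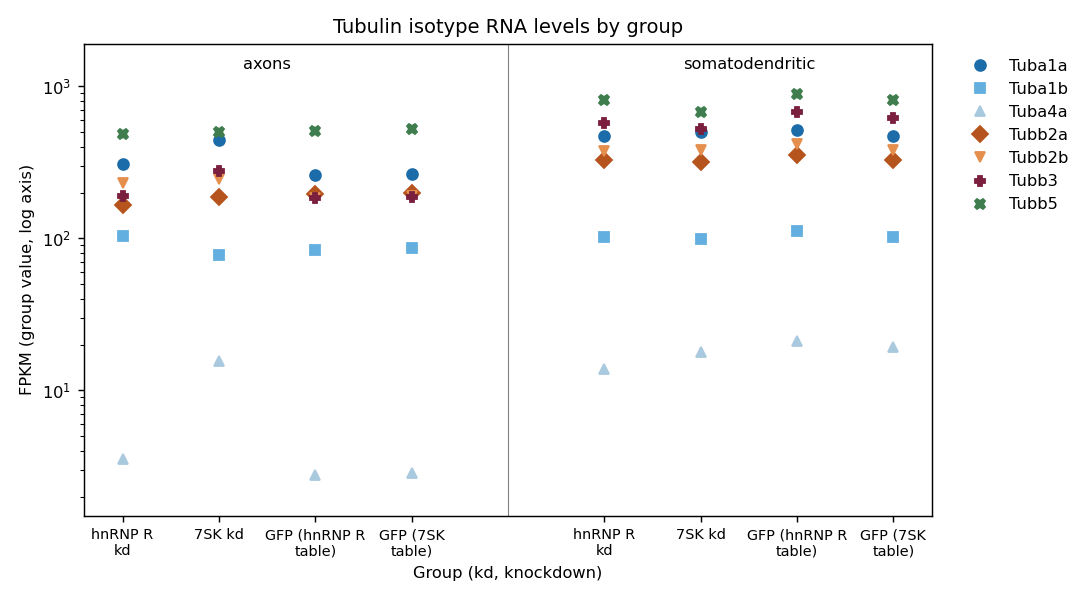
FPKM of the 7 isotypes in the 8 group values of the 4 tables (log axis; kd, knockdown; each point is 1 group value of the authors, with no error available). Tubb5 lies highest in every group and Tuba4a lowest, and Tubb3 lies between 183 and 276 FPKM in axons and between 527 and 675 FPKM in cell bodies.

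Tuba1a, the main alpha isotype of young neurons, lies on chromosome 15 (GRCm38, 98949841 to 98953551). It was at 308 FPKM in hnRNP R knockdown axons, 441 in the axon group labelled 7SK knockdown, and 259.6 and 267 in the 2 scalings of the control axons. In cell bodies it was at 471 FPKM after hnRNP R knockdown, 499 after 7SK knockdown, and 514 and 473 in the control. It was the second most abundant isotype in each axon group and the third in each somatodendritic group.

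Tuba1b, a broadly expressed alpha isotype, is the neighbour of Tuba1a (chromosome 15, 98931425 to 98934565). It was at 103 FPKM in hnRNP R knockdown axons, 78.2 in the axon group labelled 7SK knockdown, and 84.1 and 86.5 in control axons. In cell bodies it was at 102 FPKM after hnRNP R knockdown, 98.6 after 7SK knockdown, and 111 and 103 in the control. Its range over the 8 values, 78.2 to 111 FPKM, was the narrowest of the 7 isotypes in FPKM apart from that of Tuba4a.

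Tuba4a (chromosome 1, 75210838 to 75219253), an alpha isotype of mature neurons, was the rarest member. It was at 3.53 FPKM in hnRNP R knockdown axons, 15.5 in the axon group labelled 7SK knockdown, and 2.76 and 2.84 in control axons. In cell bodies it was at 13.9 FPKM after hnRNP R knockdown, 17.8 after 7SK knockdown, and 21.1 and 19.4 in the control. Its record overlaps Stk16, a kinase gene at up to 31.9 FPKM, and reads of the overlap cannot be assigned with certainty, so Tuba4a values are uncertain.

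Tubb2a and Tubb2b are neighbouring beta genes of the brain on chromosome 13 (34074301 to 34078008 and 34127008 to 34130354). Tubb2a was at 166 FPKM in hnRNP R knockdown axons, 187 in the axon group labelled 7SK knockdown, and 195 and 200.2 in control axons. Tubb2b was at 232, 245, 184 and 189 FPKM in the same 4 axon values. Tubb2a thus lay under its control in both knockdown axon groups and Tubb2b over it. In cell bodies Tubb2a was at 326 FPKM after hnRNP R knockdown, 317 after 7SK knockdown, and 354 and 326 in the control. Tubb2b was at 373, 383, 415 and 382 FPKM in these somatodendritic values. The coding sequences of close tubulin paralogues are much alike, and the sources used here do not say how the authors treated reads that match several genes, so values of close pairs are uncertain.

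Tubb3, the class III isotype of neurons, lies on chromosome 8 (123411424 to 123422015). It was at 191 FPKM in hnRNP R knockdown axons, 276 in the axon group labelled 7SK knockdown, and 183 and 188 in control axons. In cell bodies it was at 571 FPKM after hnRNP R knockdown, 527 after 7SK knockdown, and 675 and 622 in the control. All axon values lay under all somatodendritic values, and both knockdowns lay under the control in cell bodies.

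Tubb5, the class I isotype that most cell types express, lies on chromosome 17 (35833926 to 35838306). It was at 483 FPKM in hnRNP R knockdown axons, 503 in the axon group labelled 7SK knockdown, and 508 and 523 in control axons. In cell bodies it was at 816 FPKM after hnRNP R knockdown, 678 after 7SK knockdown, and 888 and 817 in the control. No other tubulin gene reached its level in any group.

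Axon and cell body levels come from tables that were scaled separately, so their ratio carries no test and is set beside that of all genes. With 0.1 FPKM added, the median log2 ratio of axon over somatodendritic level was -0.54 over the 3123 genes at 10 FPKM or more in both control columns of the hnRNP R tables. The log2 ratios of Tuba1b (-0.41), Tubb5 (-0.81), Tubb2a (-0.86), Tuba1a (-0.98) and Tubb2b (-1.18) lay near it, and less that median they ran between -0.64 for Tubb2b and 0.13 for Tuba1b. Tubb3 (-1.88) and Tuba4a (-2.89) lay farther down, at -1.34 and -2.35 less the median. Among 5437 genes at 10 FPKM or more in either column, 6.51% had a lower ratio than Tubb3 and 0.736% a lower ratio than Tuba4a. The log2 ratio of Tubb3 was -1.58 in the hnRNP R knockdown groups, where 14.8% of genes had a lower one, and -0.93 in the groups labelled 7SK knockdown, where 31.1% did. That of Tuba4a was -1.95 in the hnRNP R knockdown groups and -0.19 in the groups labelled 7SK knockdown. The medians of all genes were -0.44 and -0.34 in these groups. In bulk RNA, fewer cells of a type and less RNA per cell cannot be told apart.

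Shares within a family do not depend on the scaling of a table. In control axons Tubb5 gave 42.3% of all beta tubulin FPKM, Tubb2a 16.3%, Tubb2b 15.3% and Tubb3 15.3%. In control cell bodies Tubb5 gave 36.3%, Tubb2a 14.5%, Tubb2b 17.0% and Tubb3 27.6%. The share in axons less that in cell bodies was -12.3 percentage points for Tubb3, the difference of largest size among the 7 isotypes. Tubb3 also held less in axons in the knockdowns, with 15.9% in axons against 26.1% in cell bodies after hnRNP R knockdown and 20.9% against 25.9% in the groups labelled 7SK knockdown. Among alpha isotypes Tuba1a held 74.2% in control axons and 79.5% in control cell bodies. Tuba1b held 24.0% in control axons and 17.2% in control cell bodies, and Tuba4a 0.788% and 3.27%. The order was reversed in the groups labelled 7SK knockdown, where Tuba1b held 14.6% in axons and 16.0% in cell bodies. Summed beta over summed alpha FPKM was 2.88 in hnRNP R knockdown axons, 2.46 in the axon group labelled 7SK knockdown and 3.43 in control axons. In cell bodies it was 3.73 after hnRNP R knockdown, 3.30 after 7SK knockdown and 3.79 in the control.

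**Figure D2:**
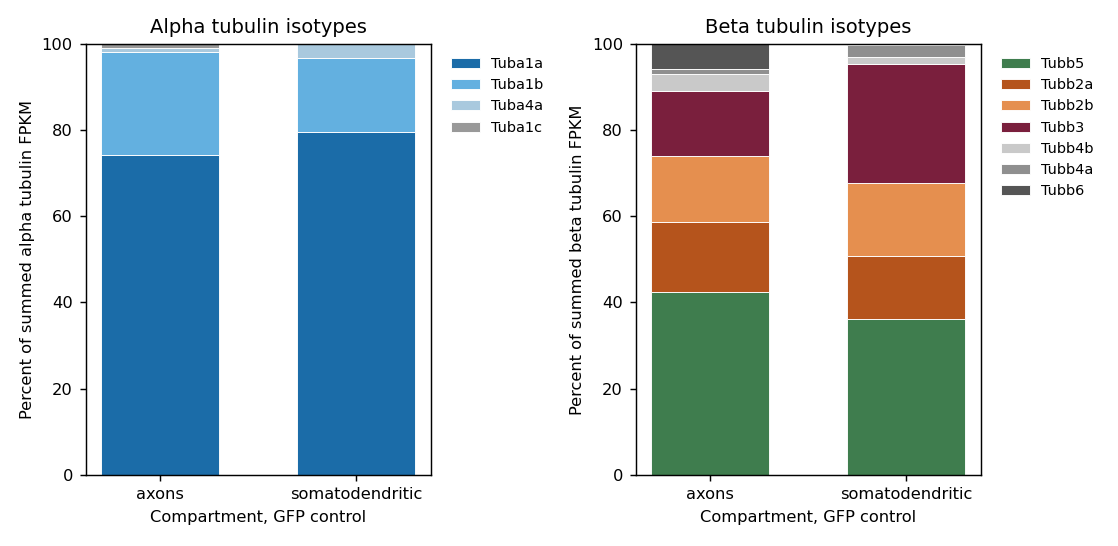
Percent of the summed alpha (left) and beta (right) tubulin FPKM taken by each isotype in GFP control axons and GFP control cell bodies of the hnRNP R tables, with the members in colour and other isotypes in grey. Tubb3 takes 15.3% of beta tubulin in axons and 27.6% in cell bodies, and Tubb6 takes 5.81% and 0.317%.

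The other tubulin genes held a small part of both pools. Of 13 further tubulin genes, 5 reached 10 FPKM in any group: Tubb4a, Tubb4b, Tubb6, Tubg1 and Tubg2. Only 2 of the 13 were tested in each knockdown table, and none passed. Tubb6, a minor class V beta isotype, was at 69.7 FPKM in control axons against 7.76 in control cell bodies, a log2 ratio of 3.15. Tubb4a, a class IV isotype of neurons and oligodendrocytes, stood at 13.0 FPKM in control axons against 66.0 in control cell bodies, a log2 ratio of -2.34. The broadly expressed Tubb4b was at 47.2 FPKM in control axons against 41.5 in control cell bodies. Tubg1, the gamma tubulin of nucleating complexes, was at 11.0 against 18.4 FPKM, and its paralogue Tubg2 at 3.76 against 9.88 FPKM. Markers of other cells also differed between the compartments. The 11 fibroblast markers summed to 1037 FPKM in control axons (8 at 1 FPKM or more) against 171 in control cell bodies (6 at 1 FPKM or more), with Lum at 0 in axons and Postn at 0 in cell bodies. Acta2 (526 FPKM), Fn1 (237 FPKM) and Tagln (230 FPKM) made up most of that axonal sum, and 7 of the 11 markers were higher in axons and 4 lower. The 10 markers of astrocytes and radial glia summed to 657 FPKM in control axons against 486 in control cell bodies, but only Vim (408 against 147 FPKM) and Nes (68.0 against 9.51 FPKM) were higher in axons and the other 8 were lower. The 6 proliferation markers summed to 139 FPKM against 89.4, with 5 higher and 1 lower in axons. The 12 microglia and macrophage markers summed to 11.4 FPKM against 63.3, with 11 lower and 1 at 0 in both. The 8 oligodendrocyte markers summed to 24.0 FPKM against 83.5, with all 8 lower in axons. All 8 pan-neuronal markers, chosen without Tubb3, were lower in axons and summed to 499 FPKM in control axons against 1748 in control cell bodies. The part of these cells in the axon to soma ratios of the tubulins was not tested.

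Knockdown of hnRNP R in axons left 4 of the 6 tested isotypes above and 2 below their control, and none passed the authors' test. Of all 1749 genes tested there, 2 passed at q under 0.05, or 0.114%, in the authors' deposited table. The log2 ratios, knockdown over control, were 0.34 for Tubb2b (q = 0.830), 0.30 for Tuba1b (q = 0.845), 0.25 for Tuba1a (q = 0.883) and 0.06 for Tubb3 (q = 0.968) in the authors' deposited table. Tubb5 had -0.07 (q = 0.968) and Tubb2a -0.23 (q = 0.883) in the authors' deposited table. The median of the 6 isotypes was 0.15, close to the 0.14 of all tested genes. An unadjusted p under 0.05 was reached by 0 of the 6 and by 9.26% of all tested genes. Tuba4a was not tested by the authors. Microglia and macrophage markers summed to 30.2 FPKM in hnRNP R knockdown axons against 11.4 in control axons, with 11 of 12 higher, and pan-neuronal markers to 581 FPKM against 499, with 4 higher and 4 lower. Their part in the tubulin values was not tested.

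In cell bodies all 7 isotypes were tested after hnRNP R knockdown, and all 7 lay under their control without passing, where 0.975% of 2768 genes passed in the authors' deposited table. The lowest log2 ratio was that of Tuba4a, -0.60 (unadjusted p = 0.0415, q = 0.364), then Tubb3 with -0.24 (unadjusted p = 0.0199, q = 0.301), in the authors' deposited table. The other 5 isotypes lay between -0.16 for Tubb2b and -0.12 for Tubb2a, and the median of all 7 was -0.13 against 0.02 for all tested genes, of which 1308 lay under and 1460 over their control. An unadjusted p under 0.05 was reached by 2 of the 7 isotypes and by 12.3% of all tested genes. In the cell bodies, pan-neuronal markers summed to 1604 FPKM after hnRNP R knockdown against 1748 in the control, with 2 of 8 higher and 6 lower, and 8 oligodendrocyte markers to 120.3 FPKM against 83.5, with 7 higher and 1 lower. Fibroblast markers summed to 150.0 FPKM against 171, with 6 of 11 higher, 5 lower and a median of 3.76 FPKM against 2.74. The sum followed Acta2, at 59.5 FPKM after knockdown against 82.8 in the control. The part of these cells in the tubulin values was not tested.

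None of the 6 isotypes tested in axons labelled 7SK knockdown passed, where 3.07% of 1009 genes passed in the authors' deposited table. The log2 ratio was 0.72 for Tuba1a (unadjusted p = 0.0406, q = 0.240), 0.56 for Tubb3 (q = 0.360) and 0.37 for Tubb2b (q = 0.595) in the authors' deposited table. It was -0.06 for Tubb5, -0.10 for Tubb2a and -0.15 for Tuba1b in the same authors' deposited table. The median of the 6 was 0.16 against 0.23 for all tested genes, and 18.1% of all tested genes had an unadjusted p under 0.05. Tuba4a, not tested, was listed at a log2 ratio of 2.45 in the authors' deposited table. In the alpha pool Tuba1a held 82.2% in this group against 74.2% in control axons, and in the beta pool Tubb3 held 20.9% against 15.2%. In the authors' deposited table Tubb6 had 29.5 FPKM in this group and 71.9 in control axons, with a log2 of -1.28 (unadjusted p = 0.0174, q = 0.158). Fibroblast markers summed to 565 FPKM in this group against 1068 in control axons, with 3 of 11 higher, 7 lower and Lum at 0 in both. Acta2 (176 against 543 FPKM) and Tagln (107 against 237 FPKM) carried the lower sum. Col1a1 (46.1 against 27.1 FPKM), Col1a2 (12.1 against 2.24 FPKM) and Thy1 (8.96 against 5.38 FPKM) were higher. The median of the list was 8.96, the value of Thy1 itself, against 4.61 FPKM. Like the pan-neuronal markers, Thy1 was lower in control axons than in control cell bodies (5.38 against 23.0 FPKM). The 12 microglia and macrophage markers summed to 145 FPKM (11 at 1 FPKM or more) against 11.7 (4 at 1 FPKM or more, with Aif1, Trem2 and Fcer1g at 0). Pan-neuronal markers summed to 735 FPKM against 512, with 6 of 8 higher and 2 lower. Their part in the tubulin values was not tested.

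In cell bodies after 7SK knockdown none of the 6 tested isotypes passed, where 2.51% of 1954 genes passed in the authors' deposited table. Tubb5 had a log2 ratio of -0.27 (unadjusted p = 0.0232, q = 0.228) and Tubb3 one of -0.24 (unadjusted p = 0.0194, q = 0.203) in the authors' deposited table. The other tested isotypes lay between -0.06 for Tuba1b and 0.08 for Tuba1a, and the median was -0.05 against 0.06 for all tested genes. An unadjusted p under 0.05 was reached by 2 of the 6 isotypes and by 15.3% of all tested genes. Pan-neuronal markers summed to 1310.3 FPKM in these cell bodies against 1609 in the control, with 2 of 8 higher and 6 lower. Fibroblast markers summed to 239 FPKM against 158, with 8 of 11 higher, 3 lower and a median of 2.66 FPKM against 2.53. Acta2 (130 against 76.3 FPKM) and Tagln (41.8 against 22.6 FPKM) carried most of the higher sum. Microglia and macrophage markers summed to 87.6 FPKM against 58.3, with 8 of 12 higher, and oligodendrocyte markers to 103 FPKM against 76.8, with 7 of 8 higher. Proliferation markers summed to 111 FPKM against 82.3, with all 6 higher. Markers of astrocytes and radial glia summed to 482 FPKM against 447, with 8 of 10 higher, 2 lower and a median of 22.7 FPKM against 12.6. Their part in the tubulin values was not tested. At q under 0.1 the share of all genes passing would be 0.114% and 1.7% for hnRNP R knockdown axons and cell bodies and 5.45% and 5.37% for those of 7SK knockdown, still without an isotype, in the authors' deposited tables. Both knockdowns share their control libraries, so that a likeness of their ratios, such as that of Tubb3 in cell bodies, is not independent.

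**Figure D3:**
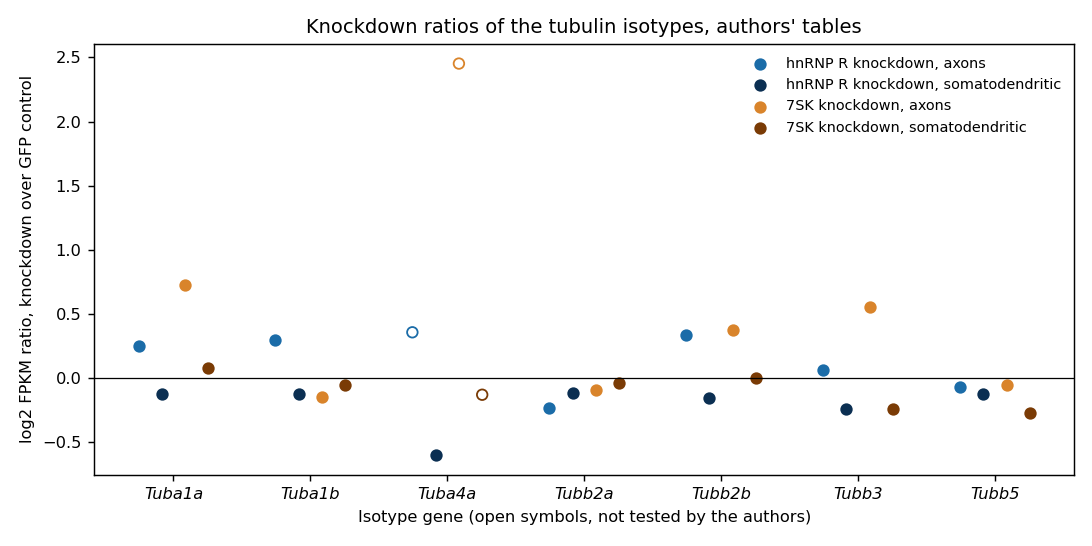
Log2 FPKM ratio of knockdown over GFP control for each isotype in the 4 comparisons of the authors' deposited tables (filled, tested by the authors; open, not tested; no error is available). No point passed at q under 0.05, and the points at 0.56 and above are Tubb3, Tuba1a and the untested Tuba4a in the axon group labelled 7SK knockdown.

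Factors that fold, nucleate or modify tubulin were read in the same tables. Of 22 tubulin folding genes, 21 had a record and between 8 and 15 were tested per table, and none passed. The 3 most abundant, all subunits of the chaperonin CCT, were Cct5 (mean of 74.1 FPKM over the 8 values), Tcp1 (59.7 FPKM) and Cct2 (58.7 FPKM). Cct5 had 86.9 FPKM in 7SK knockdown cell bodies and 63.2 in control ones (log2 0.46, q = 0.376 in the authors' deposited table). Of 16 genes of the gamma tubulin and augmin complexes, at most 1 was tested per table and none passed. Haus5, an augmin subunit whose record is shared with another gene, had 28.9 FPKM in 7SK knockdown cell bodies and 13.5 in control ones (log2 1.10, q = 0.0767 in the authors' deposited table). Haus7, also of augmin, averaged 13.2 FPKM and Mzt2, a component of gamma tubulin complexes, 10.5 FPKM, and neither was tested.

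Of 26 tubulin modifying enzymes, 25 had a record, between 1 and 5 were tested per table, and 1 passed. It was the only enzyme of the list tested in axons labelled 7SK knockdown, where 3.07% of 1009 genes passed in the authors' deposited table. Agbl5, a deglutamylase that removes branch-point glutamates, rose to 38.7 FPKM in axons labelled 7SK knockdown, with 6.69 in control axons (log2 2.53, q = 0.00561 in the authors' deposited table). It was at 15.0 FPKM in 7SK knockdown cell bodies against 14.6 in control cell bodies, and was not tested there. Agtpbp1, a deglutamylase of long glutamate chains, had 71.9 FPKM in 7SK knockdown cell bodies and 39.1 in control ones (log2 0.88, q = 0.0743 in the authors' deposited table). For hnRNP R knockdown cell bodies the values were 64.8 and 42.5 FPKM (log2 0.61, q = 0.329 in the authors' deposited table). In axons it lay under its control, with 20.0 against 28.3 FPKM for hnRNP R knockdown and 17.4 against 29.1 FPKM for the group labelled 7SK knockdown. Atat1, the alpha tubulin acetyltransferase, had 63.5 FPKM in 7SK knockdown cell bodies and 90.6 in control ones (log2 -0.51, q = 0.216 in the authors' deposited table). Ttll1, a glutamylase subunit, had 20.7 FPKM in hnRNP R knockdown cell bodies and 32.2 in control ones (log2 -0.64, q = 0.314 in the authors' deposited table).

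Profiles over the 8 group values were compared with those of 4466 genes that averaged 10 FPKM or more, by the root mean square difference of centred log2 values. The control libraries enter this measure 2 times, and it is a description. The nearest gene that is no tubulin was Dhx9 for Tubb2a (0.032), B3gat1 for Tubb3 (0.051), Rnf19b for Tubb2b and Cap1 for Tubb5 (0.058 each), Hars for Tuba1a (0.073), Sae1 for Tuba1b (0.074) and Ypel3 for Tuba4a (0.19). B3gat1 makes the HNK-1 sugar epitope of neurons, Dhx9 is an RNA helicase and Cap1 an actin-binding protein. Among pairs of isotypes the most alike were Tubb2a and Tubb5 (0.118), with Tubb5 at rank 41 of the genes compared with Tubb2a, then Tuba1a and Tubb2b (0.167), with Tubb2b at rank 113 of those compared with Tuba1a.

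In iCLIP with hnRNP R antibody, the few cDNAs of the 7 isotypes lay mainly on Tuba1a in motoneurons, and on Tubb5, Tuba1a and Tubb3 in NSC34 cells. Library totals were 359005 and 319381 cDNAs for motoneurons, 456721 and 99762 for NSC34 cells and 36280 for IgG. Tuba1a had 28 and 37 cDNAs in the motoneuron libraries, 21 and 8 in the NSC34 libraries and 0 with IgG. Tubb5 had 6 and 6 in motoneurons, 36 and 15 in NSC34 cells and 7 with IgG. Tubb3 had 7 and 7 in motoneurons, 18 and 3 in NSC34 cells and 3 with IgG. These were low counts, and the other isotypes had fewer still. Tubb2a had 8 and 1 cDNAs in motoneurons and 3 and 0 in NSC34 cells, and Tubb2b 4 and 2 in motoneurons, 0 in NSC34 cells and 1 with IgG. Tuba1b had 1 and 1 in motoneurons and 4 and 0 in NSC34 cells, and Tuba4a 1 cDNA in all. The 7 isotypes together gathered 109 of 678386 cDNAs in the 2 motoneuron libraries, 108 of 556483 in the 2 NSC34 libraries and 11 of 36280 with IgG.

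Set against RNA levels in control cell bodies, Tuba1a took 59.6% of the motoneuron cDNAs of the 7 isotypes but 17.2% of their FPKM. Tubb5 took 11.0% of the cDNAs and 29.8% of the FPKM, and Tubb3 12.8% and 22.7%. Counting only cDNAs in exons, Tuba1a had 7.59 per 100 FPKM, Tubb5 1.24, and Tubb2a, Tubb2b and Tubb3 between 0.444 and 0.565. Tuba1b and Tuba4a had no exonic cDNA. The labels give different growth protocols for the RNA and the iCLIP cultures, and the cDNA counts were not divided by gene length. How reads that match several tubulin genes entered the cDNA counts was not examined. Counts in parts that are alike between paralogues, such as coding sequences, are therefore uncertain.

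Motoneurons had more Tuba1a and fewer Tubb5 cDNAs than NSC34 cells in an edgeR quasi-likelihood test of the unfractionated libraries. Of 9567 genes with at least 10 cDNAs, 37.3% passed at an adjusted p under 0.05, 23.4% higher and 13.9% lower in motoneurons, and 2 of the 4 isotypes tested did. Levels are given as CPM, the cDNAs of a gene per 1000000 cDNAs of the library. Tuba1a was at 78.0 and 116 CPM in motoneurons against 46.0 and 80.2 in NSC34 cells. These ranges overlap, while after TMM scaling they were 124 and 174 against 36.3 and 65.4 and did not. Its log2 ratio was 1.74 ± 0.42 (SE, n = 2 and 2, edgeR adjusted p = 0.000434). Tubb5 was at 16.7 and 18.8 CPM in motoneurons against 78.8 and 150.4 in NSC34 cells, ranges that do not overlap, with a log2 ratio of -1.55 ± 0.52 (SE, edgeR adjusted p = 0.0140). Tubb2a had a log2 ratio of 2.16 ± 1.12 (SE, edgeR adjusted p = 0.125) and Tubb3 one of 0.10 ± 0.61 (SE, edgeR adjusted p = 0.920). With library totals alone, an alternative chosen after seeing the data, the median log2 ratio of all genes was -0.86 in place of 0.08. Tuba1a then had 0.79 (edgeR adjusted p = 0.113), Tubb5 -2.49 (edgeR adjusted p = 8.63e-06) and Tubb3 -0.84, reversed in sign. DESeq2 called neither isotype (Tuba1a 1.63, adjusted p = 0.127, and Tubb5 -1.71, adjusted p = 0.156). Without NSC34 replicate 1 Tuba1a had 1.01 (edgeR adjusted p = 0.230), and without NSC34 replicate 2 Tubb5 had -1.33 (edgeR adjusted p = 0.0924). Over the 12 settings run, edgeR and DESeq2 adjusted p ranged between 0.000131 and 0.230 for Tuba1a and between 8.63e-06 and 0.156 for Tubb5. RNA of NSC34 cells was not analysed here, so a difference in RNA level and one in crosslinking cannot be told apart.

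**Figure D4:**
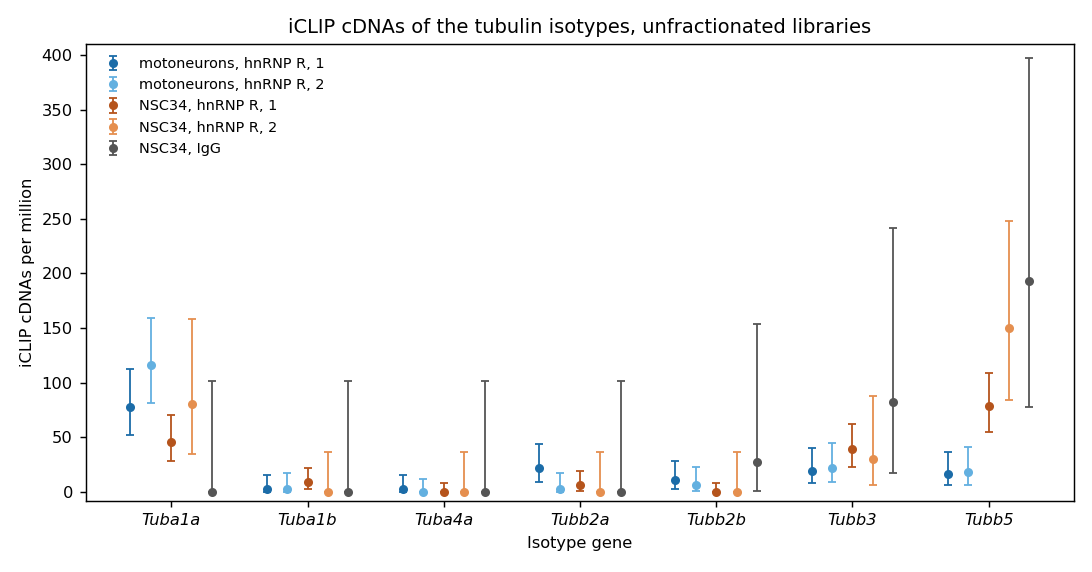
cDNA level in CPM of each isotype in the 5 unfractionated iCLIP libraries, without TMM scaling, with exact 95% Poisson intervals that cover counting error only. Tuba1a is at 78.0 and 116 in motoneurons and 46.0 and 80.2 in NSC34 cells, and Tubb5 at 16.7 and 18.8 in motoneurons against 78.8 and 150.4 in NSC34 cells and 193 with IgG.

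Against the IgG library no isotype stood out among hnRNP R libraries of NSC34 cells. Of the 4 isotypes tested 0 passed in edgeR, where 0.533% of 9567 genes did, 987 genes had an unadjusted p under 0.05 and DESeq2 called 11 genes and no isotype. Tubb5 was at 78.8 and 150.4 CPM with hnRNP R antibody against 193 with IgG (95% Poisson interval 77.6 to 398), a log2 ratio of -0.67 (edgeR adjusted p = 0.761). Tubb3 was at 39.4 and 30.1 against 82.7 with IgG (95% Poisson interval 17.1 to 242), a log2 ratio of -0.89 (edgeR adjusted p = 0.785). The IgG level of both was thus above that of either hnRNP R library, within wide counting intervals. Tuba1a, at 46.0 and 80.2 CPM with hnRNP R antibody, had no cDNA with IgG and did not pass (unadjusted p = 0.0372, edgeR adjusted p = 0.428). A count of 0 in that library allows up to 82.7 CPM when taken as 3 counts, and up to 102 CPM by the exact 95% Poisson interval drawn in the plot of CPM by isotype. Both limits lie above the unscaled level of either NSC34 library. After TMM scaling 3 counts in the IgG library stand at 53.9 CPM, between the Tuba1a levels of the NSC34 libraries (36.3 and 65.4). No fold against IgG is therefore given. No IgG library of motoneurons was analysed here. The header of the IgG file names hnRNP R as its protein and carries library number 14, as does that of NSC34 replicate 2, so that its identity rests on its title.

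Fractions gave few tubulin cDNAs. Tuba1a had 9 cDNAs in the nuclear motoneuron library against 15 in the cytoplasmic one, or 98.6 against 77.0 CPM. The nuclear library held 91302 cDNAs in all and the cytoplasmic one 194816. Tubb3 had 5 against 4 cDNAs (54.8 against 20.5 CPM) and Tubb2b 4 against 2 (43.8 against 10.3 CPM). Tubb5 had 2 against 0 and Tubb2a 1 against 2 (11.0 against 10.3 CPM). In the 4 NSC34 fractions together the isotypes had 7 cDNAs, with 1 of Tuba1a and 4 of Tubb3, and those libraries held between 2796 and 48398 cDNAs. In edgeR with each pair of fractions as a block, the log2 ratio of nuclear over cytoplasmic was -0.34 ± 1.72 for Tuba1a and 0.05 ± 1.41 for Tubb3 (SE, n = 3 pairs, edgeR adjusted p = 1 for both). These 3 pairs differ in cells or antibody and are not replicates of 1 condition. Most Tuba1a cDNAs came from the motoneuron pair, where the nuclear level was the higher one (224 against 193 CPM after TMM scaling). The negative sign of the Tuba1a ratio came with the antibody 2 pair, which had 1 Tuba1a cDNA, in the cytoplasmic library. Without that pair the log2 ratio was 0.25. None of 5177 genes passed in edgeR (0%), where 27 had an unadjusted p under 0.05 and DESeq2 called 3.

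The isotypes differed in the part of the gene where their cDNAs lay, as the authors assigned it. In motoneurons 36 of 65 Tuba1a cDNAs, or 55.4% (exact 95% binomial interval 42.5% to 67.7%), lay in the 3' untranslated region (UTR), 26 in introns and 3 in the coding part. Over all genes 6.13% of motoneuron cDNAs lay in 3' UTRs and 87.4% in introns. Each motoneuron library showed it, with 16 of 28 and 20 of 37 Tuba1a cDNAs in the 3' UTR. In NSC34 cells 17 of 29 Tuba1a cDNAs (58.6%, interval 38.9% to 76.5%) lay in the 3' UTR, against 9.28% over all genes. Tubb5 cDNAs were also mostly exonic. In motoneurons 8 of 12 lay in the 3' UTR and 3 in the coding part, and in NSC34 cells 21 of 51 lay in the 3' UTR and 29 (56.9%, interval 42.2% to 70.7%) in the coding part. With IgG, 4 of 7 Tubb5 cDNAs lay in the coding part and 2 in the 3' UTR. Tubb3 cDNAs lay mainly in introns, 11 of 14 in motoneurons (78.6%, interval 49.2% to 95.3%) and 20 of 21 in NSC34 cells (95.2%, interval 76.2% to 99.9%), as did all 9 of Tuba1b over the 10 hnRNP R libraries. In the motoneuron fractions 7 of 9 nuclear and 7 of 15 cytoplasmic Tuba1a cDNAs were intronic. cDNAs of a library are not replicates, so these shares carry no test, and the intervals cover counting error only. The shares were not divided by the length of each part, and counts in coding parts that are alike between paralogues are uncertain here too. The genes spanned 3.71 kilobases for Tuba1a, 4.38 for Tubb5 and 10.6 for Tubb3, and the part of gene structure in the shares was not tested.

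**Figure D5:**
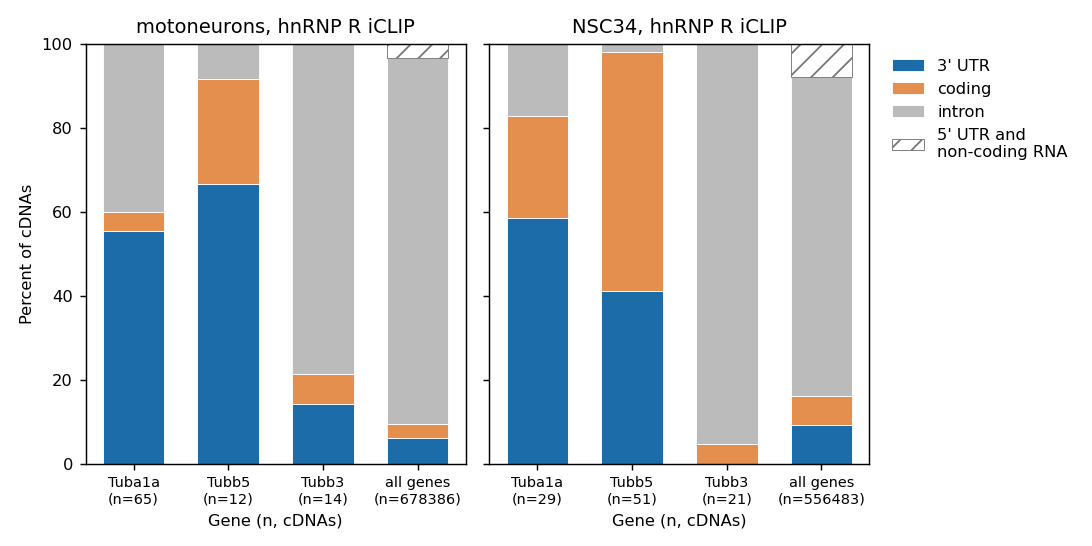
Percent of hnRNP R iCLIP cDNAs in each part of the gene for Tuba1a, Tubb5, Tubb3 and all genes, summed over the 2 unfractionated libraries of motoneurons (left) and of NSC34 cells (right), with the number of cDNAs under each bar. The 3' UTR holds 55.4% and 58.6% of Tuba1a cDNAs against 6.13% and 9.28% over all genes, and Tubb3 is mostly intronic.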

How the data were processed

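The authors' FPKM values were deposited as 1 value per group in 4 tables on GRCm38, made with Cufflinks 2.2.1 after FastQC 0.10.1, per the submitters' processing notes. The sources used here do not give their aligner or annotation release. Log2 ratios of knockdown over control, the test score, and each p-value and q-value are the authors' own, as deposited. A gene was called at q under 0.05 with a completed test. The q-values differed by at most 5.28e-07 from Benjamini-Hochberg over the tested genes. No test was refitted, and leaving out replicates was not possible. The descriptions of some libraries name another table than their group would have, and groups follow the titles. Shares are percentages of summed FPKM over the isotypes of a family, and ratios of axon over cell body had 0.1 FPKM added.

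iCLIP values are whole-number counts of cDNAs per gene and gene part, deposited by the authors on mm9 with Ensembl annotation 59, per the file headers. Genes with blank entries were taken as 0, since no gene is listed with 0 on both strands. A minimum of 10 cDNAs over all libraries in a fit was required, and genes were tested with edgeR 4.0.16 (quasi-likelihood, TMM, Benjamini-Hochberg at 0.05) in R 4.3.3, in 1 fit of the 5 unfractionated libraries and 1 of the 6 fractions. The IgG library, alone in its group, was assumed to vary like the others. DESeq2 1.42.0 was an alternative. Each nuclear library was paired with the cytoplasmic library of the same cells and antibody, which carries the same library number in its file header. The 2 libraries of a group differed beyond counting noise, with a chi-square per degree of freedom of 3.80 in motoneurons and 2.73 in NSC34 cells. The procedure was tested on simulated data with a fixed spread and changes planted only in genes well above the minimum count. That test does not cover genes with few cDNAs. In total 1243 further per-sample columns were not used. Depth ranged between 2796 and 456721 cDNAs per library, and intervals cover counting error only.

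Members and gene lists were chosen with earlier results of these data known. Named were the 7 members, other tubulins at 10 FPKM or more in a group, genes of the lists of folding, nucleating and modifying factors that the authors called or that were the 3 most abundant of a list, and the nearest profile of each member.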

Additional observations from a re-analysis of the deposited data

How the results depend on the processing

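Across alternatives the absence of calls among the isotypes in the 4 knockdown comparisons held at q under 0.1 and for records of 1 gene. With unadjusted p under 0.05, 2 isotypes in hnRNP R cell bodies, 1 in axons labelled 7SK knockdown and 2 in 7SK cell bodies would be called. Relative to the median of all tested genes, Tubb3 in hnRNP R axons turned to -0.075 and Tubb2b in 7SK cell bodies to -0.057. The median axon to soma log2 ratio of the members, -0.98, was -0.83 with the control columns of the 7SK tables and -0.45 relative to all genes, where Tuba1b turned to 0.13. The share of Tubb3 in axons less that in cell bodies ranged between -12.3 and -11.8 percentage points. The share of Tuba1a cDNAs in the 3' UTR was 57.1% and 54.1% in the motoneuron libraries taken alone.

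The isotypes called between motoneurons and NSC34 cells numbered 2, against 0 with DESeq2, 1 with library totals alone and between 1 and 3 leaving out a library. Without motoneuron replicate 2 Tubb2a passed (2.80, edgeR adjusted p = 0.0374). Tubb3 turned to -0.13 without a filter on low counts, to -0.84 with library totals alone, and leaving out a library it ranged between -0.12 (without NSC34 replicate 2) and 0.20, also below 0 without motoneuron replicate 2 (-0.071). Genes called there numbered 1497 with DESeq2, 972 in exonic parts and 1954 without NSC34 replicate 1, against 3566. Against IgG, where 51 genes were called, 81 were called with library totals alone, 14 in exonic parts and 11 with DESeq2, and no isotype in any of these. The number of genes called against IgG also moved when 1 library at a time was left out, again with no isotype. There Tubb5 turned to 0.11 in exonic parts. Between fractions Tuba1a turned to 0.045 in exonic parts, and leaving out a pair gave 0.25 (without antibody 2) and -0.27 (without antibody 1 in NSC34). Tubb3 turned to -0.24 with DESeq2, -0.13 with its size factors, -0.15 with library totals alone, -0.12 with no replicate block, and leaving out a pair gave -0.25 (antibody 2) and 1.47 (antibody 1 in NSC34). Without the motoneuron pair no isotype could be tested. Replicate numbers do not pair motoneurons with NSC34 cells (correlation of deviations -0.04 over 2664 genes), and that replicate block gave 3211 calls in place of 3566, again with 2 isotypes. No paired analysis was possible because of the single group values in the RNA tables. The causes were not tested.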
